A study of Homo sapiens with 54 samples.

Results

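Transporters that move copper, platinum drugs or drug conjugates across membranes, together with 1 copper chaperone, were followed across 6 high-grade serous ovarian cancer cell lines with and without carboplatin. The set holds 10 genes, chosen by symbol from the 25435 genes of the expression table: SLC31A1, SLC31A2, ATOX1, ATP7A, ATP7B, ABCC1, ABCC2, ABCC3, ABCC5 and ABCG2. No expression threshold entered the choice, which was made with earlier results of these data known. All 10 were listed in the table and all 10 passed the filter on low values, which kept 18013 genes.

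The lines form 3 pairs, each derived from the same patient, and the line labelled platinum resistant is named first: PEA2 with PEA1, PEO4 with PEO1, and PEO23 with PEO14. Each line was sampled untreated, at 8 h and at 24 h of exposure to 80 µM carboplatin, which forms platinum adducts on DNA, with 3 libraries per group. The sources differ on this: the design text gives the dose in mM, and it and the protocol speak of a vehicle control, taken at 24 h per the design text. The µM dose and the sample label untreated are used here. No allele or other agent is named for any group, and each pair stands for a single patient. PEA2 was used at passages 23 to 27 and PEA1 at higher passages. Values are TPM, a length-adjusted share of a library's transcripts. They were rescaled between libraries by a median ratio and are called rescaled TPM. Differences are given as log2 differences of (rescaled TPM + 1) with a standard error (SE), and a gene is called where limma's p, adjusted over the 18013 genes by the Benjamini-Hochberg method, is under 0.05. On this scale the change of weakly expressed genes is understated.

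Copper enters most cells through SLC31A1 (CTR1), a trimeric channel of the plasma membrane that has also been studied as a route of platinum uptake. SLC31A2 (CTR2) is a related protein found mainly on internal membranes. ATOX1 carries cytosolic copper to the P-type ATPases ATP7A and ATP7B, which load copper into the secretory pathway and export it, and both ATPases can bind platinum. ABCC1 (MRP1), ABCC2 (MRP2), ABCC3 (MRP3) and ABCC5 (MRP5) export organic anions, among them glutathione conjugates for several of them, and ABCG2 exports many unconjugated drugs. Changes of these genes have long been examined as routes of platinum resistance in ovarian cancer.

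Of the 54 libraries, 12 listed fewer than 12000 genes above 0 TPM and were set aside. The other 42 are the kept libraries. They left no untreated PEO23 library. PEA1 untreated, PEO14 at 24 h and PEO4 at 24 h had 1 library each, and a lone library is taken to have the spread of the remaining groups. PEA2, PEO4 and PEO1 had 2 kept libraries at 8 h, and every other group had 3. A set-aside library labelled PEA1 untreated replicate 3 had an endothelium marker sum of 198 TPM, against 0 TPM in the kept untreated PEA1 library and 128 to 259 TPM in kept PEA2 libraries. EPCAM, KRT7, KRT8, KRT18 and PAX8 were above 0 in all 42 kept libraries. Of other epithelial markers, CDH1 was listed at 0 in 3 and KRT19 in 4. Of other serous ovarian markers, WT1 was at 0 in 3, MUC16 in 6, MSLN in 7, FOLR1 in 17 and SOX17 in 19. Among leukocyte and fibroblast markers CD3E was listed at 0 in 42 and DCN in 41. CD14 was at 0 in 11 and reached 10.55 rescaled TPM, and COL1A1 was at 0 in 2 and reached 61.2. The others of both lists were at 0 in 22 to 39. CDH5 had a median of 128 rescaled TPM in PEA2 with at most 21.1 in any other line. Ribosomal protein genes made up a median of 19.8% of TPM in the 29 treated libraries and 12.2% in the 13 untreated ones, and RMRP with RPPH1 a median of 16.2% and 10.9%. A median of 14 olfactory receptor genes were above 0 in treated libraries and 35 in untreated ones. Marker genes moved with treatment too. Averaged over lines, 3 of 6 epithelial markers were called higher at 8 h and 2 at 24 h, but 0 higher and 5 lower at 8 h and 0 higher and 2 lower at 24 h without rescaling. Of 6 serous ovarian markers, 1 was higher and 3 lower at 8 h and 0 higher and 2 lower at 24 h, and of 4 tested fibroblast markers 2 were lower at 8 h and 1 at 24 h. Serous ovarian markers summed to 9.79 to 363.4 TPM in treated libraries (median 62.1) and to 183.4 to 1948 TPM in untreated ones (median 266). The part of these differences in the treatment results was not tested. Untreated and treated cultures also carry different passage or culture labels, so drug and passage cannot be told apart.

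ATOX1 was the most abundant of the 10, with a median of 87.3 rescaled TPM over the 42 kept libraries. SLC31A1 with 9.09, ABCC5 with 9.02, ABCC1 with 8.13, ABCC3 with 6.33 and SLC31A2 with 5.08 rescaled TPM lay in the middle. ATP7A had a median of 1.34 and ATP7B of 0.818 rescaled TPM. ABCG2 was listed at 0 in 19 libraries and ABCC2 in 23. ABCC2 never exceeded 0.803 rescaled TPM and was called in no comparison.

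**Figure D1:**
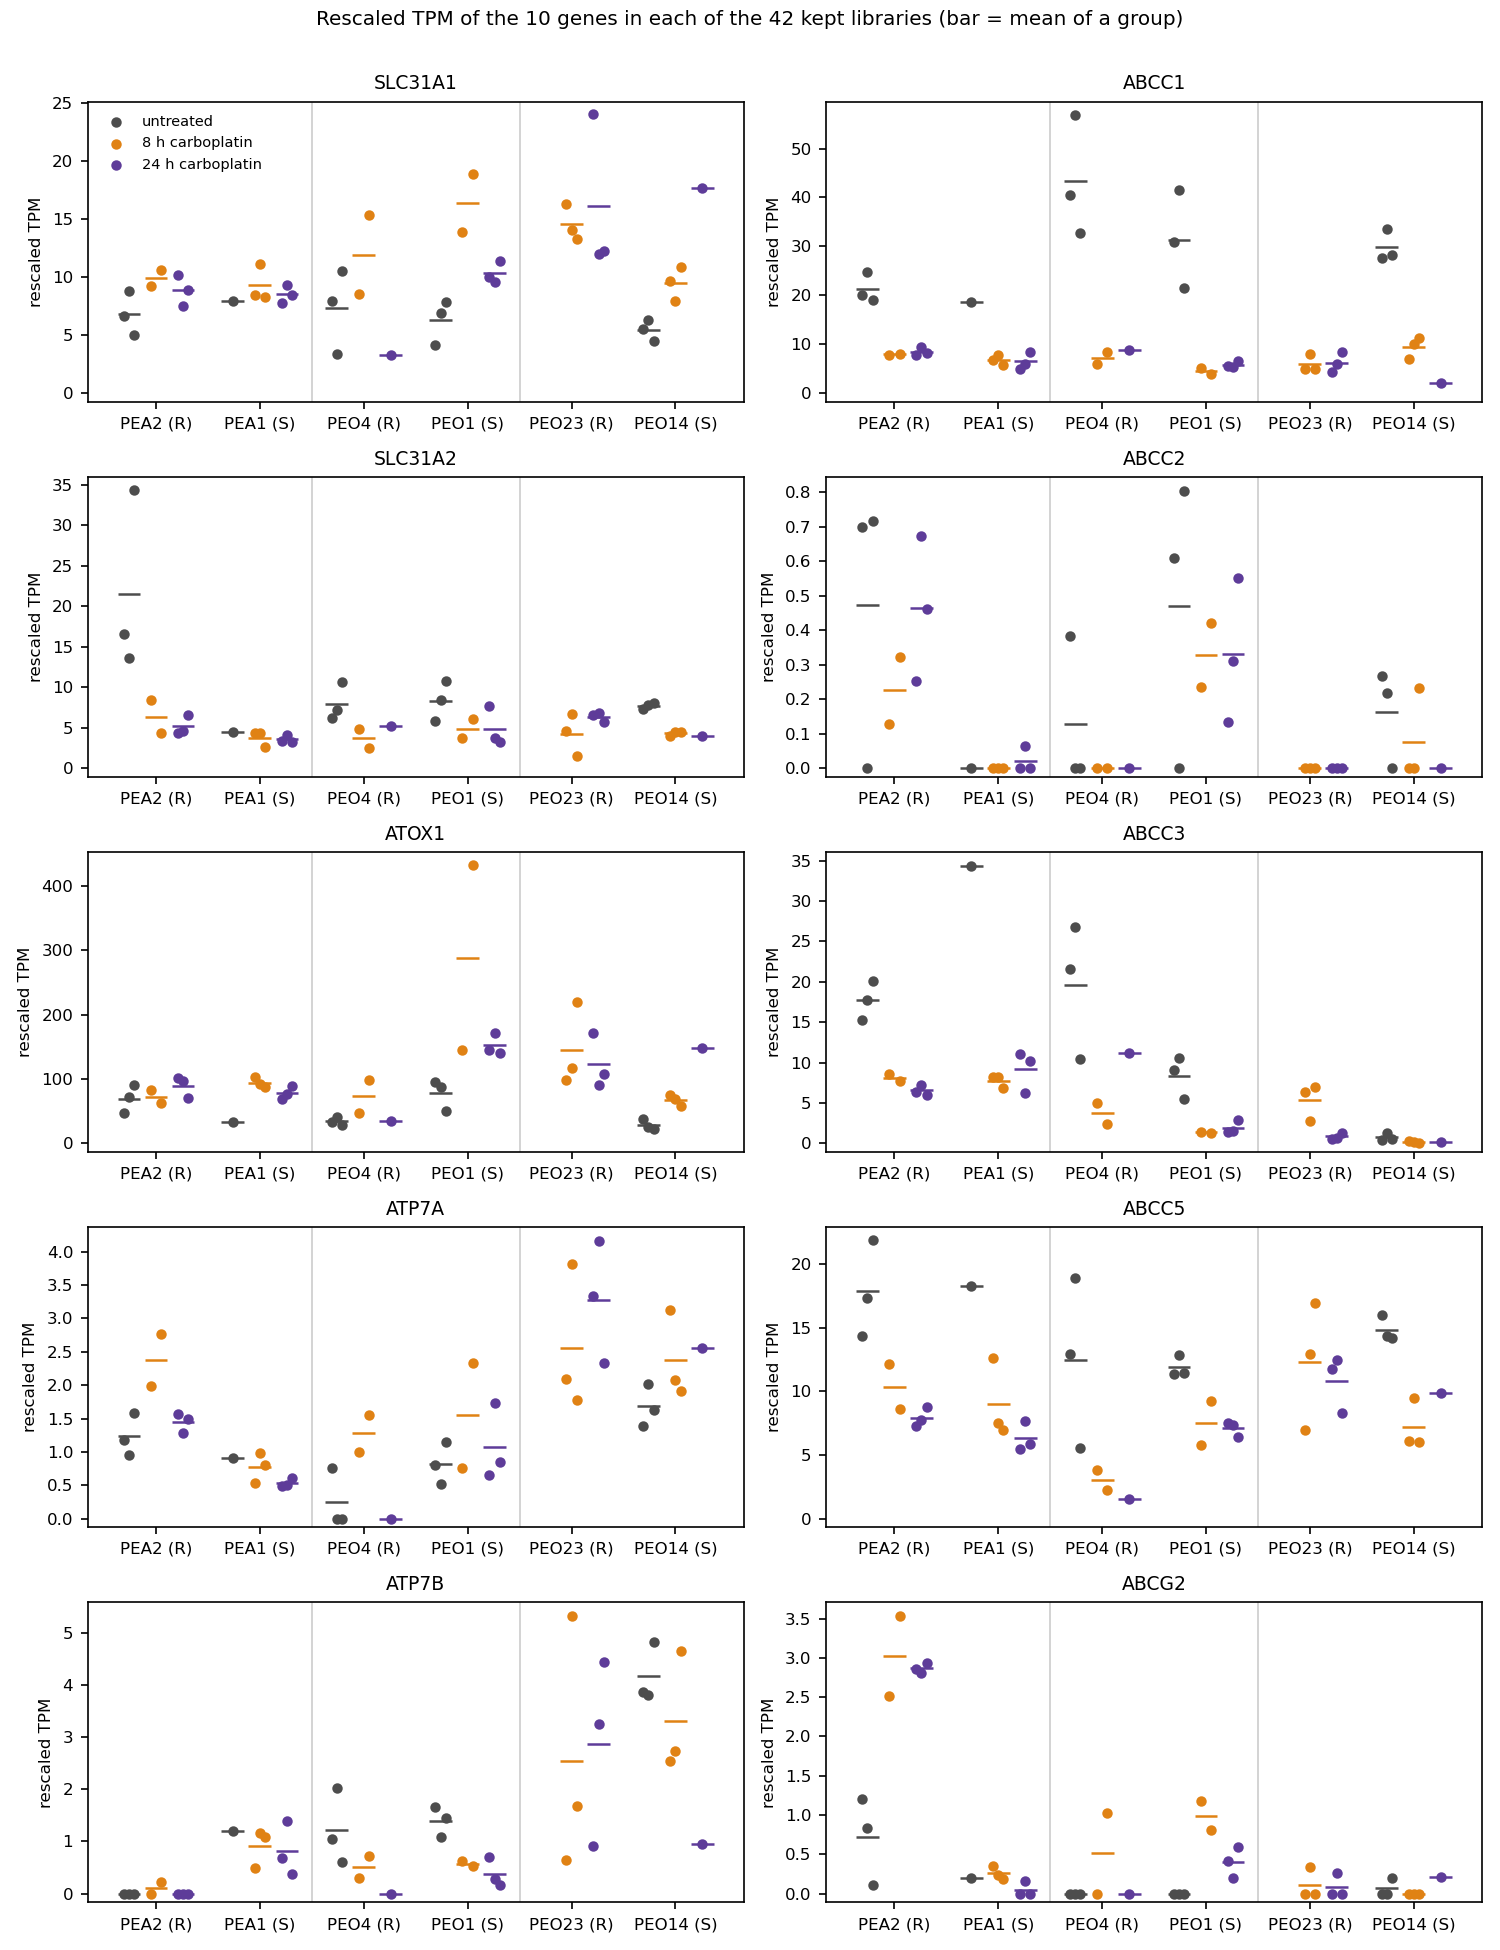
Rescaled TPM (y axis, linear) of each of the 10 genes in the 42 kept libraries, by line (R, resistant; S, sensitive) and time; each point is a library and each bar a group mean. ABCC1 lies highest in the untreated libraries of every line that has them, while ABCG2 is clearly above 0 mainly in PEA2.

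Carboplatin-treated cells had less ABCC1 RNA in every line with an untreated library, at both times. Averaged over the 5 lines, ABCC1, ABCC3, ABCC5 and SLC31A2 fell at 8 h and at 24 h, and ATP7B fell at 24 h. ATOX1 and ABCG2 rose at both times, and SLC31A1 and ATP7A rose at 8 h. Without rescaling, ABCG2 kept its call at 8 h, but the averaged calls of ATOX1 at both times, of SLC31A1 and ATP7A at 8 h and of ABCG2 at 24 h were lost. Averaged over lines, 4 members were higher and 4 lower at 8 h, where 63.6% of all tested genes were called, 23.9% higher and 39.7% lower. At 24 h, 2 were higher and 5 lower, where 56.8% of all genes were called, 21.7% higher and 35.2% lower. The median change of the members was -0.21 at 8 h and -0.40 at 24 h, beside -0.22 and -0.19 over all genes tested.

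Line by line, the members called at 8 h against untreated numbered 3 in PEA2, 2 in PEA1, 5 in PEO4, 5 in PEO1 and 3 in PEO14. Of all tested genes, 14.3% were called in PEA2, 5.90% in PEA1, 53.6% in PEO4, 41.9% in PEO1 and 30.1% in PEO14. In PEO4 and PEO1, 5 of 10 members lie near the share of all genes. At 24 h the members called numbered 5 in PEA2 (17.3% of all genes), 2 in PEA1 (6.02%), 2 in PEO4 (20%), 3 in PEO1 (38.6%) and 4 in PEO14 (36.2%). All comparisons of a line use the same untreated libraries, so the 8 h and 24 h values of a line are not independent.

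The direction of calls depends on the scaling. In the average over lines, 4307 genes were called higher and 7149 lower at 8 h with rescaling, and 1256 and 10730 without. At 24 h the numbers were 3902 and 6338 with rescaling, and 1325 and 9031 without. Within single lines the share of calls that were higher at 8 h lay between 10.2% and 41.7% with rescaling and between 2.1% and 11.8% without, and at 24 h between 13.1% and 40.6% with and between 2.9% and 16.4% without. The median of all tested genes shifted by -0.22 at 8 h with rescaling and by -0.74 without it. Relative to that median, SLC31A1 changed by 0.90 with rescaling and by 0.56 without, ATOX1 by 1.33 and 0.91, ATP7A by 0.65 and 0.68, ABCC1 by -1.61 and -1.92, and ABCC3 by -1.32 and -1.46.

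**Figure D2:**
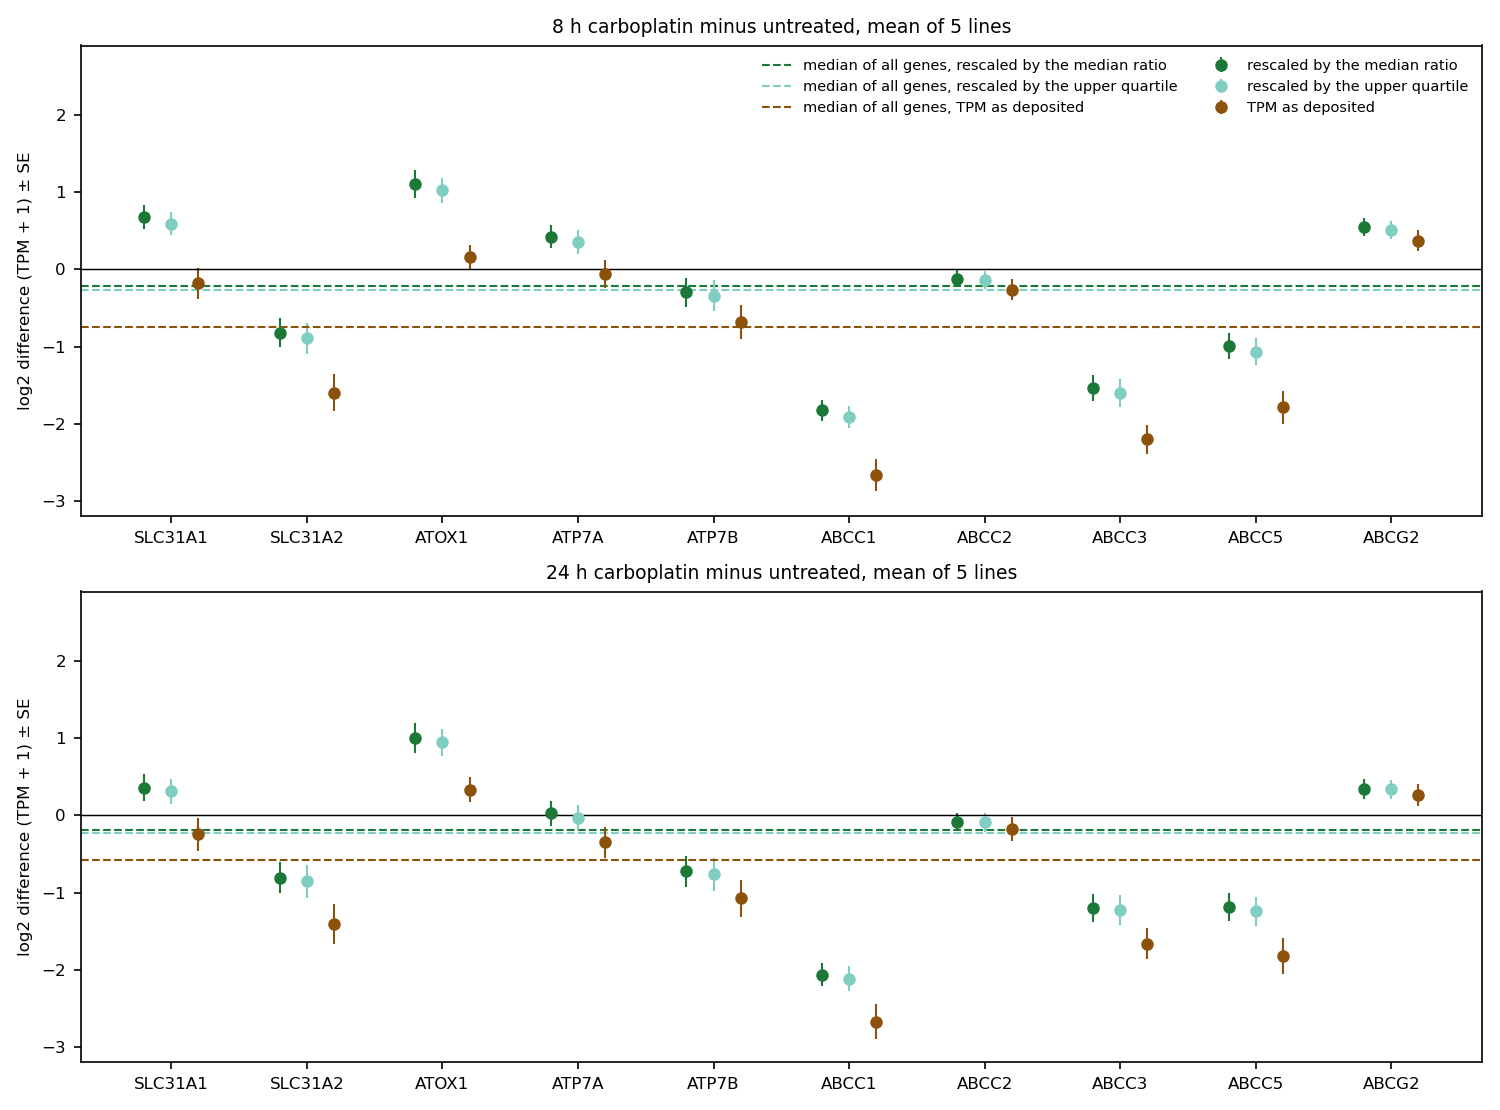
Log2 difference from untreated averaged over 5 lines (y axis, ± SE) of each gene at 8 h and 24 h under 3 scalings; dashed lines mark the median of all tested genes under the same scaling. ABCC1, ABCC3 and ABCC5 lie below 0 under all 3, and SLC31A1 lies above 0 with either rescaling and at -0.18 (8 h) and -0.25 (24 h) with TPM as deposited.

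Promoter windows, from 250 bases before to 50 after a transcription start, were taken from RefSeq (GRCh38.p14), which held windows for 7 of the 10 genes; SLC31A2, ABCC1 and ABCC3 are named only. SLC31A1 and ATOX1 are shown because their group means were the most alike among the members, and ABCC5 because it is the only ABCC member with a window that was called in any comparison. Capitals mark the GC box GGGCGG on either strand. The SLC31A1 window is chr9:113221294-113221593 on the plus strand, the ATOX1 window is chr5:151758582-151758881 on the minus strand, and the ABCC5 window is chr3:184017835-184018134 on the minus strand.
SLC31A1: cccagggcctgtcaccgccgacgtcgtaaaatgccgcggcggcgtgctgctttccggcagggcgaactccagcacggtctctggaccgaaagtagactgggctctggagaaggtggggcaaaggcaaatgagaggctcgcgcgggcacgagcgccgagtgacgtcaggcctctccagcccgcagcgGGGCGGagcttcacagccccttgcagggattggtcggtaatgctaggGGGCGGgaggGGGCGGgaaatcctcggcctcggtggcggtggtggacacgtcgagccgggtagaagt
ATOX1: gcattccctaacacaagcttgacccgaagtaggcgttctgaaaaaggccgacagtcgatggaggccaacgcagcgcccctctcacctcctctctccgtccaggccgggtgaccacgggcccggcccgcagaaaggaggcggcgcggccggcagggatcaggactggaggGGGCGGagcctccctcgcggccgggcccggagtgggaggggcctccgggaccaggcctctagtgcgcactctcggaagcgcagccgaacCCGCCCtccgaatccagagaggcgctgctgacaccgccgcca
ABCC5: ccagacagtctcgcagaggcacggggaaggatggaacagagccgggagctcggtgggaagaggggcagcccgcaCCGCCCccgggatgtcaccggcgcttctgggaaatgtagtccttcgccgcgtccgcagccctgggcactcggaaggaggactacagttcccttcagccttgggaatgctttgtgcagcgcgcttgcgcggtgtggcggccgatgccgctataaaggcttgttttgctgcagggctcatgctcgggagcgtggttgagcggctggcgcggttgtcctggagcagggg
The windows held 3 GC boxes for SLC31A1, 2 for ATOX1 and 1 for ABCC5, a motif found in 45.0% of 35116 promoter windows of that length. ATOX1 also held 1 antioxidant response element core (TGACNNNGC, either strand, 13.3% of windows). It held 2 matches to a metal response element core (TGCGCNC, either strand, 20% of windows), which overlap on opposite strands of the same stretch. The other 2 windows had neither core, nor did any of the 3 hold TGCACNC (12.1%). These matches describe the letters only.

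SLC31A1, the high-affinity copper importer, lay between 5.03 and 11.2 rescaled TPM in the PEA pair. PEA2 had 6.67, 8.78 and 5.03 rescaled TPM untreated, 9.26 and 10.6 at 8 h and 10.2, 7.50 and 8.92 at 24 h. PEA1 had 7.98 untreated, 8.48, 11.2 and 8.34 at 8 h and 7.83, 9.33 and 8.47 at 24 h. The ranges of both lines overlapped at each treated time, and no SLC31A1 comparison in this pair was called.

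In the PEO4 pair the importer was called higher in PEO1 at 8 h than in untreated PEO1. It was called lower in the PEO4 library at 24 h than in PEO1 at 24 h and PEO4 at 8 h. At 8 h the difference between PEO4 and PEO1, -0.46 ± 0.37, was not called (adjusted p = 0.544). PEO4 had 7.95, 3.41 and 10.6 rescaled TPM untreated, 8.58 and 15.3 at 8 h and 3.27 in its 24 h library. PEO1 had 4.2, 6.90 and 7.87 untreated, 13.9 and 18.9 at 8 h and 10.0, 9.63 and 11.4 at 24 h. SLC31A1 rose in PEO1 at 8 h by 1.27 ± 0.33 (adjusted p = 0.00288), with no overlap between the groups. Without PEO1 8 h replicate 2 the difference was 1.06 and not called, and without rescaling it was -0.29. The 8 h change in PEO4 was not called, but it was with the replicate block (0.99, adjusted p = 0.0295). That block adds the replicate number to the model. The number pairs cultures by label only between 8 h and 24 h. Against untreated, and between lines, the labels do not back such a pairing. At 24 h SLC31A1 was lower in PEO4 than in PEO1 by -1.41 ± 0.42 (adjusted p = 0.0172), and lower in PEO4 at 24 h than at 8 h by -1.55 ± 0.45 (adjusted p = 0.0230), both resting on 1 PEO4 library. Leaving out PEO4 8 h replicate 2 ended the second call, at -1.17, and without rescaling both were lost, at -1.56 and -0.53.

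The highest SLC31A1 value, 24.1 rescaled TPM, was in PEO23 at 24 h, in a library with 8.93 TPM as deposited. PEO23 had 16.3, 14.0 and 13.3 rescaled TPM at 8 h and 24.1, 12 and 12.3 at 24 h, and PEO14 had 5.50, 6.33 and 4.49 untreated, 9.68, 7.94 and 10.9 at 8 h and 17.7 at 24 h. As deposited, the PEO14 values overlapped, with 7 to 9.56 TPM untreated and 7.50 to 12.13 TPM treated. With rescaling, SLC31A1 was above its untreated values in every treated PEO14 library. It rose in PEO14 at 24 h by 1.55 ± 0.42 (1 treated library, adjusted p = 0.00501), and the difference was 0.30 and not called without rescaling. All 3 rescaled PEO23 values at 8 h exceeded those of PEO14, but the difference of 0.57 ± 0.30 was not called. As deposited these values overlapped, with 4.65 to 12.55 TPM in PEO23 and 7.50 to 12.13 TPM in PEO14.

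SLC31A2 was highest in untreated PEA2. PEA2 had 16.5, 13.6 and 34.3 rescaled TPM untreated, 8.38 and 4.32 at 8 h and 4.39, 4.59 and 6.61 at 24 h, and PEA1 had 4.49 untreated, 2.60 to 4.40 at 8 h and 3.29 to 4.12 at 24 h. The untreated PEA2 values lay above every other kept library of the study. The difference between untreated PEA2 and PEA1 was 1.93 ± 0.51 (1 PEA1 library, adjusted p = 0.0107). In PEA2, SLC31A2 fell by 1.56 ± 0.41 at 8 h (adjusted p = 0.00885) and by 1.77 ± 0.36 at 24 h (adjusted p = 0.000823) on the log2 scale. Leaving out PEA2 untreated replicate 3 ended the call between the lines, at 1.54, and the 8 h call, at -1.18. The 8 h call was also lost without PEA2 8 h replicate 3, at -1.15. The 24 h call was kept without any single library.

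In the other pairs SLC31A2 values were lower after treatment in most libraries, without a call in a single line. Without rescaling the 8 h changes were called in PEO4 (-2.08), PEO1 (-2.07) and PEO14 (-1.25), and the 24 h changes in PEO1 (-1.23) and PEO14 (-1.93). PEO4 had 6.20, 7.17 and 10.6 rescaled TPM untreated, 4.92 and 2.54 at 8 h and 5.23 at 24 h. PEO1 had 5.89, 8.38 and 10.8 untreated, 3.69 and 6.13 at 8 h and 7.66, 3.75 and 3.26 at 24 h. PEO23 had 4.57, 6.72 and 1.49 at 8 h and 5.74 to 6.85 at 24 h, and PEO14 had 7.30 to 8.07 untreated, 3.99 to 4.53 at 8 h and 4.02 at 24 h. Averaged over 5 lines, SLC31A2 fell by 0.82 ± 0.19 at 8 h (adjusted p = 0.000392) and by 0.81 ± 0.21 at 24 h (adjusted p = 0.00139) on the log2 scale.

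ATOX1, the copper chaperone, was lower in PEO4 than in PEO1 at every time. PEO4 had 32.8, 41.6 and 28.4 rescaled TPM untreated, 48.1 and 98.6 at 8 h and 34.3 at 24 h. PEO1 had 95.2, 87.3 and 50.4 untreated, 145 and 432 at 8 h and 146, 171 and 141 at 24 h. The groups did not overlap at any time. The difference between PEO4 and PEO1 was -1.12 ± 0.35 untreated (adjusted p = 0.0153), -1.85 ± 0.43 at 8 h (adjusted p = 0.00356) and -2.12 ± 0.49 at 24 h (adjusted p = 0.00255). The untreated call was lost without PEO4 replicate 3 (-0.999), PEO1 replicate 1 (-0.95) or PEO1 replicate 2 (-1.01), and the 8 h call without PEO1 replicate 2 (-1.06) or PEO4 replicate 1 (-1.34). The 24 h call, which has 1 PEO4 library, was kept without any PEO1 library.

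Under carboplatin ATOX1 rose in PEO1 by 1.73 ± 0.39 at 8 h (adjusted p = 0.000671) and by 1.01 ± 0.35 at 24 h (adjusted p = 0.0213). In PEO4 it rose at 8 h by 1.00 ± 0.39 (adjusted p = 0.0298). The 8 h call in PEO1 was lost without replicate 2 at 8 h (0.94), and the 24 h call without untreated replicate 3 (0.73) or 24 h replicate 2 (0.93). The PEO4 call was lost without 8 h replicate 2 (0.49), untreated replicate 3 (0.88) or untreated replicate 1 (0.98), and with the replicate block (0.88, adjusted p = 0.0911). Without rescaling these differences were 0.00052 and 0.46 in PEO1 and -0.62 in PEO4, none called.

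In the PEO14 pair ATOX1 rose with treatment in the sensitive line. PEO23 had 99.1, 117 and 220 rescaled TPM at 8 h and 172, 90.6 and 108 at 24 h, and PEO14 had 38.1, 25.1 and 22.4 untreated, 75.1, 69.6 and 58.2 at 8 h and 148 at 24 h. Treated PEO14 libraries were all above untreated ones, by 1.25 ± 0.35 at 8 h (adjusted p = 0.00690) and by 2.37 ± 0.49 at 24 h (1 treated library, adjusted p = 0.000419). Without rescaling the differences were 0.67 and 1.02, with adjusted p of 0.0867 and 0.0515. PEO23 exceeded PEO14 at 8 h by 1.01 ± 0.35 (adjusted p = 0.0471), a call lost without PEO23 replicate 3 (0.67), without any of PEO14 replicates 1, 2 and 3 (1.09, 1.04 and 0.91), with the replicate block (1.01, adjusted p = 0.0553) and without rescaling (0.13).

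In the PEA pair no ATOX1 comparison was called. PEA2 had 47.2, 71.8 and 90.4 rescaled TPM untreated, 82.7 and 62.3 at 8 h and 101.5, 96.6 and 70.2 at 24 h. PEA1 had 33.1 untreated, 103.8, 92.8 and 87.3 at 8 h and 69.5, 76.7 and 89.0 at 24 h. All treated PEA1 values were above the untreated one, with differences of 1.49 ± 0.49 at 8 h (adjusted p = 0.0704) and 1.21 ± 0.49 at 24 h (adjusted p = 0.158). Averaged over 5 lines ATOX1 rose by 1.11 ± 0.18 at 8 h (adjusted p = 4.17e-06) and by 1.00 ± 0.20 at 24 h (adjusted p = 7.80e-05), and by 0.16 and 0.33 without rescaling, where neither was called.

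ATP7A, the copper ATPase of most tissues, was weakly expressed and highest in the PEO14 pair. PEO23 had 2.10, 3.82 and 1.77 rescaled TPM at 8 h and 3.34, 4.16 and 2.33 at 24 h, and PEO14 had 1.39, 2.02 and 1.63 untreated, 3.13, 2.08 and 1.91 at 8 h and 2.56 at 24 h. In PEA2 it had 1.18, 0.960 and 1.58 untreated, 1.99 and 2.77 at 8 h and 1.56, 1.28 and 1.5 at 24 h, and in PEA1 0.909 untreated, 0.537, 0.982 and 0.798 at 8 h and 0.491, 0.505 and 0.604 at 24 h. PEA2 lay above PEA1 in all libraries of each time. The difference at 8 h was 0.93 ± 0.31 (adjusted p = 0.0370), a call lost without PEA2 replicate 1 (1.10), PEA2 replicate 3 (0.76), PEA1 replicate 1 (0.83) or PEA1 replicate 3 (0.94), while those untreated (0.22) and at 24 h (0.67) were not called.

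In PEO4, ATP7A was listed at 0 in untreated replicates 2 and 3 and at 24 h, with 0.752 in untreated replicate 1 and 0.999 and 1.55 at 8 h. PEO1 had 0.796, 0.523 and 1.15 untreated, 0.755 and 2.34 at 8 h and 0.650, 1.73 and 0.843 at 24 h. ATP7A rose in PEO4 at 8 h by 0.91 ± 0.31 (adjusted p = 0.0143). That call was lost without untreated replicate 2 or 3 (0.77 each) or 8 h replicate 2 (0.73), without rescaling (0.26), and with the replicate number as a block (0.77, adjusted p = 0.0617). The block gave a call between PEO4 and PEO1 at 24 h (-1.17, 1 PEO4 library, adjusted p = 0.0387).

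ATP7B, the copper ATPase best known from liver and Wilson disease, had its lowest values in PEA2. It was listed at 0 in 7 of 8 kept PEA2 libraries, the exception being 0.232 rescaled TPM at 8 h. In PEA1 it had 1.2 untreated, 0.498, 1.17 and 1.09 at 8 h and 0.689, 1.39 and 0.370 at 24 h. All PEA1 values exceeded all PEA2 values, yet none of the 3 comparisons passed the test, with adjusted p of 0.167 untreated, 0.236 at 8 h and 0.121 at 24 h. With 0.1 instead of 1 TPM added, all 3 were called, at -3.71 untreated (adjusted p = 0.00795), -2.40 at 8 h (adjusted p = 0.0236) and -3.04 at 24 h (adjusted p = 0.00103). The untreated difference was also called in a fit of only the compared groups (adjusted p = 0.000193).

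PEO23 and PEO14 had the highest ATP7B values. PEO23 had 0.645, 5.32 and 1.69 rescaled TPM at 8 h and 0.916, 3.25 and 4.44 at 24 h, and PEO14 had 3.86, 3.81 and 4.82 untreated, 2.55, 2.74 and 4.66 at 8 h and 0.950 at 24 h. ATP7B fell in PEO14 at 24 h by 1.40 ± 0.51 on the log2 scale (1 treated library, adjusted p = 0.0316), a call lost without untreated replicate 3, at -1.31. PEO4 had 1.05, 2.02 and 0.599 untreated, 0.307 and 0.720 at 8 h and was listed at 0 at 24 h. PEO1 had 1.66, 1.09 and 1.45 untreated, 0.619 and 0.536 at 8 h and 0.701, 0.273 and 0.169 at 24 h, with every treated PEO1 value below every untreated one. The 24 h changes in PEO4 and PEO1 were not called. With the replicate block, a pairing the labels do not back against untreated, they were, at -1.55 (1 treated library) and -0.81 (adjusted p = 0.0194). Averaged over 5 lines ATP7B fell by 0.73 ± 0.20 at 24 h (adjusted p = 0.00325) on the log2 scale. Its 8 h difference of -0.29 ± 0.19 was not called, but it was with the replicate block (-0.39, adjusted p = 0.0275) and without rescaling (-0.69, adjusted p = 0.00726).

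The ratio of the exporters ATP7A and ATP7B to the importer SLC31A1 within a library needs no scaling between libraries. It was computed as log2((ATP7A + ATP7B) / SLC31A1) in TPM for 41 of the 42 kept libraries, as both exporters were listed at 0 in PEO4 at 24 h. At 24 h the difference from untreated was -1.2 averaged over 4 lines, with 10 treated and 10 untreated libraries and all 4 lines negative (exact stratified permutation test, two-sided, p = 0.00203, adjusted over 5 tests p = 0.0102). The largest change was in PEO14, where the ratio was -2.34 in the 24 h library, against a mean of 0.11 ± 0.36 untreated (SD, n = 3). Without that library the difference over the remaining lines was -0.78 and not called. With 1 TPM added to both terms the difference was -0.74 and not called (adjusted p = 0.200). At 8 h the difference from untreated was -0.59 over 5 lines, and the exact permutation test was not passed (p = 0.08, adjusted p = 0.200).

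No difference in this ratio between the lines of a pair passed the test. PEA2 minus PEA1 was 0.02 over 8 and 7 libraries (exact permutation p = 0.948). PEO4 minus PEO1 was -0.28 over 5 and 5 libraries (exact permutation p = 0.667), and PEO23 minus PEO14 was 0.01 (exact permutation p = 0.988). The strata of these tests differed in sign, from -0.54 to 0.50 in the PEA pair and from -0.86 to 0.30 in the PEO4 pair. In the PEO14 pair they were -0.97 at 8 h and 0.99 at 24 h, the second against 1 PEO14 library. With ATP7A as the only exporter, PEA2 lay above PEA1 by 1.21 (exact permutation test, adjusted p = 0.0250), and the 24 h change was -0.64 (adjusted p = 0.0484). With ATP7B as the only exporter no comparison of the PEA lines could be made across times, as ATP7B was listed at 0 in all but 1 PEA2 library.

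**Figure D3:**
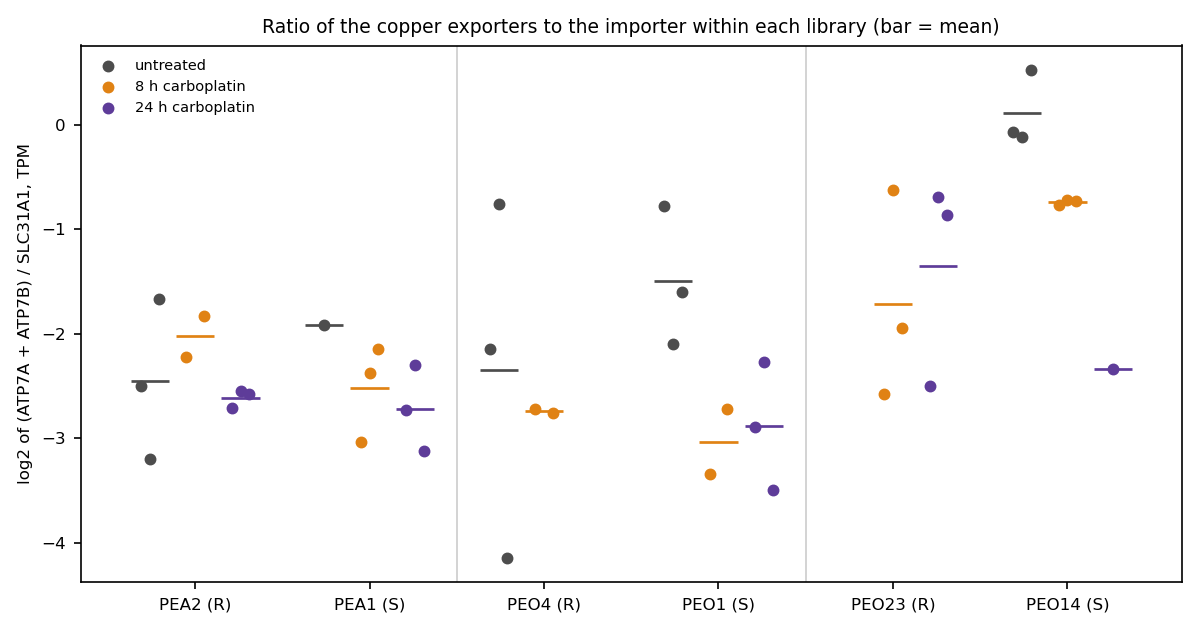
Log2 ratio of ATP7A plus ATP7B to SLC31A1 (y axis, TPM) in each of 41 kept libraries by line and time; points are libraries and bars group means. Untreated PEO14 lies near 0 and its 24 h library at -2.34, while PEA2 and PEA1 lie in a common range.

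ABCC1, which exports glutathione, glucuronide and sulphate conjugates, fell in all 5 lines at both times. In the PEA pair, PEA2 had 20.1, 24.9 and 19.1 rescaled TPM untreated, 7.88 and 8.06 at 8 h and 7.73, 9.39 and 8.16 at 24 h, and PEA1 had 18.6 untreated, 6.82, 7.92 and 5.85 at 8 h and 5.04, 6.05 and 8.50 at 24 h. PEO4 had 40.6, 56.8 and 32.8 untreated, 5.92 and 8.49 at 8 h and 8.78 at 24 h, and PEO1 had 30.9, 41.6 and 21.4 untreated, 5.14 and 3.87 at 8 h and 5.50, 5.42 and 6.56 at 24 h. PEO23 had 5.02, 8.10 and 5 at 8 h and 4.26, 6.08 and 8.50 at 24 h, and PEO14 had 27.7, 33.7 and 28.2 untreated, 7.06, 10.1 and 11.3 at 8 h and 2.07 at 24 h. The lowest untreated value, 18.6 rescaled TPM, lay above the highest treated one, 11.3 rescaled TPM. In bulk RNA, fewer cells with a transcript and less of it per cell cannot be told apart.

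At 8 h ABCC1 changed by -1.31 ± 0.29 in PEA2 (adjusted p = 0.00270), -1.33 ± 0.37 in PEA1 (adjusted p = 0.0291), -2.42 ± 0.29 in PEO4 (adjusted p = 8.51e-08), -2.51 ± 0.29 in PEO1 (adjusted p = 2.08e-07) and -1.57 ± 0.26 in PEO14 (adjusted p = 3.62e-05). At 24 h the changes were -1.24 in PEA2, -1.41 in PEA1, -2.15 in PEO4, -2.20 in PEO1 and -3.32 in PEO14, with adjusted p between 1.78e-07 and 0.0188. Averaged over the 5 lines ABCC1 fell by 1.83 ± 0.14 at 8 h (adjusted p = 2.89e-12) and by 2.06 ± 0.15 at 24 h (adjusted p = 2.42e-12) on the log2 scale. The calls in PEA1, which has 1 untreated library, were lost at 8 h without replicate 1 (-1.33) or replicate 3 (-1.23) and with the replicate block (-1.47, adjusted p = 0.0502), and at 24 h without replicate 1 (-1.26). In the other 4 lines no library that could be left out ended a call, though the lone 24 h libraries of PEO4 and PEO14 could not be left out. With only the compared groups the PEO4 call at 24 h and the PEA1 calls at both times were lost. With all 54 libraries the calls were lost in 5 lines at 8 h and in PEA2, PEA1 and PEO1 at 24 h, at -2.07 to -1.14, while both averages stayed called.

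Between 8 h and 24 h ABCC1 fell further in PEO14, by 1.75 ± 0.37 on the log2 scale (1 library at 24 h, adjusted p = 0.0102), and the paired fit with a replicate block gave -1.52 and no call (adjusted p = 0.0933). ABCC1 was also 1 of 3 members called at 24 h between resistant and sensitive lines when the 3 pairs were averaged, by 0.69 ± 0.20 (adjusted p = 0.0127), with 0.35 in the PEA pair, 0.52 in the PEO4 pair and 1.2 in the PEO14 pair, none of them called alone. At 24 h PEO4 and PEO14 had 1 library each in this average. Without rescaling the average was 0.65 and not called.

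ABCC3, an exporter of conjugates and bile salts, spanned the widest range of group means. PEA2 had 15.3, 17.8 and 20.1 rescaled TPM untreated, 8.55 and 7.71 at 8 h and 6.39, 7.28 and 6.05 at 24 h, and PEA1 had 34.3 untreated, 8.25, 8.19 and 6.84 at 8 h and 11.1, 6.26 and 10.2 at 24 h. PEO4 had 21.6, 26.8 and 10.5 untreated, 5.04 and 2.39 at 8 h and 11.2 at 24 h, and PEO1 had 9.04, 10.6 and 5.55 untreated, 1.39 and 1.34 at 8 h and 1.36, 1.59 and 2.91 at 24 h. PEO23 had 6.43, 2.76 and 6.98 at 8 h and 0.539, 0.733 and 1.34 at 24 h, and PEO14 had 0.425, 1.33 and 0.500 untreated, 0.266, 0.127 and 0 at 8 h and 0.173 at 24 h. PEO14 was thus low throughout, and the untreated PEA and PEO4 lines were high.

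With treatment ABCC3 changed at 8 h by -2.02 ± 0.47 in PEA1 (adjusted p = 0.00670), -2.09 ± 0.37 in PEO4 (adjusted p = 2.10e-05) and -1.95 ± 0.37 in PEO1 (adjusted p = 0.000101). At 24 h it changed by -1.30 ± 0.33 in PEA2 (adjusted p = 0.00601), -1.83 ± 0.47 in PEA1 (adjusted p = 0.0142) and -1.67 ± 0.33 in PEO1 (adjusted p = 0.000216). The PEA1 calls were lost with the replicate block, at -1.83 (adjusted p = 0.0503) and -1.65 (adjusted p = 0.0790), and the 24 h one without 24 h replicate 2 (-1.60). Averaged over 5 lines ABCC3 fell by 1.54 ± 0.17 at 8 h (adjusted p = 6.80e-09) and by 1.2 ± 0.19 at 24 h (adjusted p = 3.02e-06) on the log2 scale. In PEO23, ABCC3 at 24 h was below 8 h in all libraries, by -1.72 ± 0.33 (adjusted p = 0.00978), a call lost without 8 h replicate 1 (-1.57) or replicate 3 (-1.52) and without rescaling (-1.18).

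ABCC3 was called higher in a resistant line in 3 of the pair comparisons. At 8 h PEO23 exceeded PEO14 by 2.43 ± 0.33 (adjusted p = 3.58e-06). ABCC3 was higher in PEO4 than in PEO1 untreated by 1.08 ± 0.33 (adjusted p = 0.0141) and at 24 h by 2.08 ± 0.47 (1 PEO4 library, adjusted p = 0.00185). The untreated call was lost without PEO4 replicate 1 (0.96), PEO4 replicate 2 (0.82) or PEO1 replicate 3 (0.84), and under either other scaling (0.89 and 0.77). In the PEA pair ABCC3 did not differ in a call, with -0.93 ± 0.47 untreated, 0.06 ± 0.37 at 8 h and -0.40 ± 0.33 at 24 h. Averaged over the 3 pairs the difference was 1.14 ± 0.21 at 8 h (adjusted p = 0.000220) and 0.78 ± 0.25 at 24 h (adjusted p = 0.0246). The 24 h average has 1 library each for PEO4 and PEO14. Its call was lost without PEA1 24 h replicate 2 (0.70) and without rescaling (0.69). The average was -0.01 in the model of all 54 libraries.

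ABCC5, an exporter of cyclic nucleotides and nucleotide analogues, was called lower in 3 single lines, PEO4, PEO14 and PEA2. PEA2 had 14.4, 17.4 and 21.9 rescaled TPM untreated, 12.1 and 8.58 at 8 h and 7.25, 7.72 and 8.76 at 24 h, and PEA1 had 18.3 untreated, 6.96 to 12.7 at 8 h and 5.51 to 7.66 at 24 h. PEO4 had 12.9, 18.9 and 5.54 untreated, 3.78 and 2.27 at 8 h and 1.51 at 24 h, and PEO1 had 11.4, 12.8 and 11.4 untreated, 5.78 and 9.27 at 8 h and 6.44 to 7.54 at 24 h. PEO23 had 6.97, 12.9 and 17.0 at 8 h and 8.32 to 12.5 at 24 h, and PEO14 had 16, 14.4 and 14.2 untreated, 6.10, 9.49 and 5.98 at 8 h and 9.90 at 24 h. Treated values lay below untreated ones in each of the 5 lines.

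ABCC5 changed in PEO4 by -1.62 ± 0.36 at 8 h (adjusted p = 0.000326) and by -2.28 ± 0.45 at 24 h (1 treated library). It changed at 8 h in PEO14 by -0.98 ± 0.32 (adjusted p = 0.0202) and at 24 h in PEA2 by -1.07 ± 0.32 (adjusted p = 0.0198). With only the compared groups both PEO4 calls were lost (adjusted p = 0.174 at 8 h). With all 54 libraries the 8 h call in PEO4 was lost (adjusted p = 0.207), as were the PEO14 and PEA2 calls. The PEO14 call was lost without 8 h replicate 1 (-0.89), 8 h replicate 3 (-0.88) or untreated replicate 1 (-0.93), and the PEA2 call without untreated replicate 3 (-0.92), 24 h replicate 1 (-1.01) or 24 h replicate 2 (-1.05). Averaged over 5 lines it fell by 0.99 ± 0.17 at 8 h (adjusted p = 7.00e-06) and by 1.19 ± 0.18 at 24 h (adjusted p = 2.11e-06) on the log2 scale. Without rescaling it was also called in PEO1 at 8 h (-2.13) and 24 h (-1.2), in PEA1 at 24 h (-1.89) and in PEO14 at 24 h (-1.80). At 24 h it was lower in PEO4 than in PEO1 by -1.69 ± 0.45 (1 PEO4 library, adjusted p = 0.00806).

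ABCG2, an exporter of many cytotoxic drugs, was raised in PEA2 under treatment. PEA2 had 1.2, 0.838 and 0.115 rescaled TPM untreated, 2.51 and 3.53 at 8 h and 2.86, 2.81 and 2.94 at 24 h, and PEA1 had 0.201 untreated, 0.356, 0.241 and 0.190 at 8 h and 0, 0.159 and 0 at 24 h. Each treated PEA2 library lay above every library of the other lines. ABCG2 rose in PEA2 by 1.27 ± 0.25 at 8 h (adjusted p = 0.000720) and by 1.23 ± 0.22 at 24 h (adjusted p = 0.000210), and exceeded PEA1 by 1.66 ± 0.25 at 8 h (adjusted p = 8.85e-06) and by 1.88 ± 0.22 at 24 h (adjusted p = 1.23e-07). The 8 h change in PEA2 was not called with 0.1 TPM added (2.27, adjusted p = 0.0752) or with only the compared groups (adjusted p = 0.111). The untreated difference of 0.46 ± 0.32 was not called. The difference of the changes between PEA2 and PEA1 at 24 h was 1.42 ± 0.39 (unadjusted p = 0.000998), with an adjusted p of 0.158, and of 0.0486 with no filter on low values.

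In the other lines ABCG2 was mostly listed at 0. PEO4 was at 0 untreated and at 24 h, with 0 and 1.02 rescaled TPM at 8 h. PEO1 was listed at 0 in 3 untreated libraries, with 1.18 and 0.805 at 8 h and 0.412, 0.205 and 0.595 at 24 h, and the 8 h comparison passed the test (adjusted p = 0.00216), though not without rescaling (adjusted p = 0.0737). PEO23 had at most 0.336 and PEO14 at most 0.207. Averaged over 5 lines ABCG2 rose by 0.55 ± 0.12 at 8 h (adjusted p = 0.000154) and by 0.34 ± 0.13 at 24 h (adjusted p = 0.0236), and the 24 h call was lost with the replicate block (0.30, adjusted p = 0.0904). Where a group is listed at 0 throughout, the size of such a difference depends on the added 1 TPM.

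**Figure D4:**
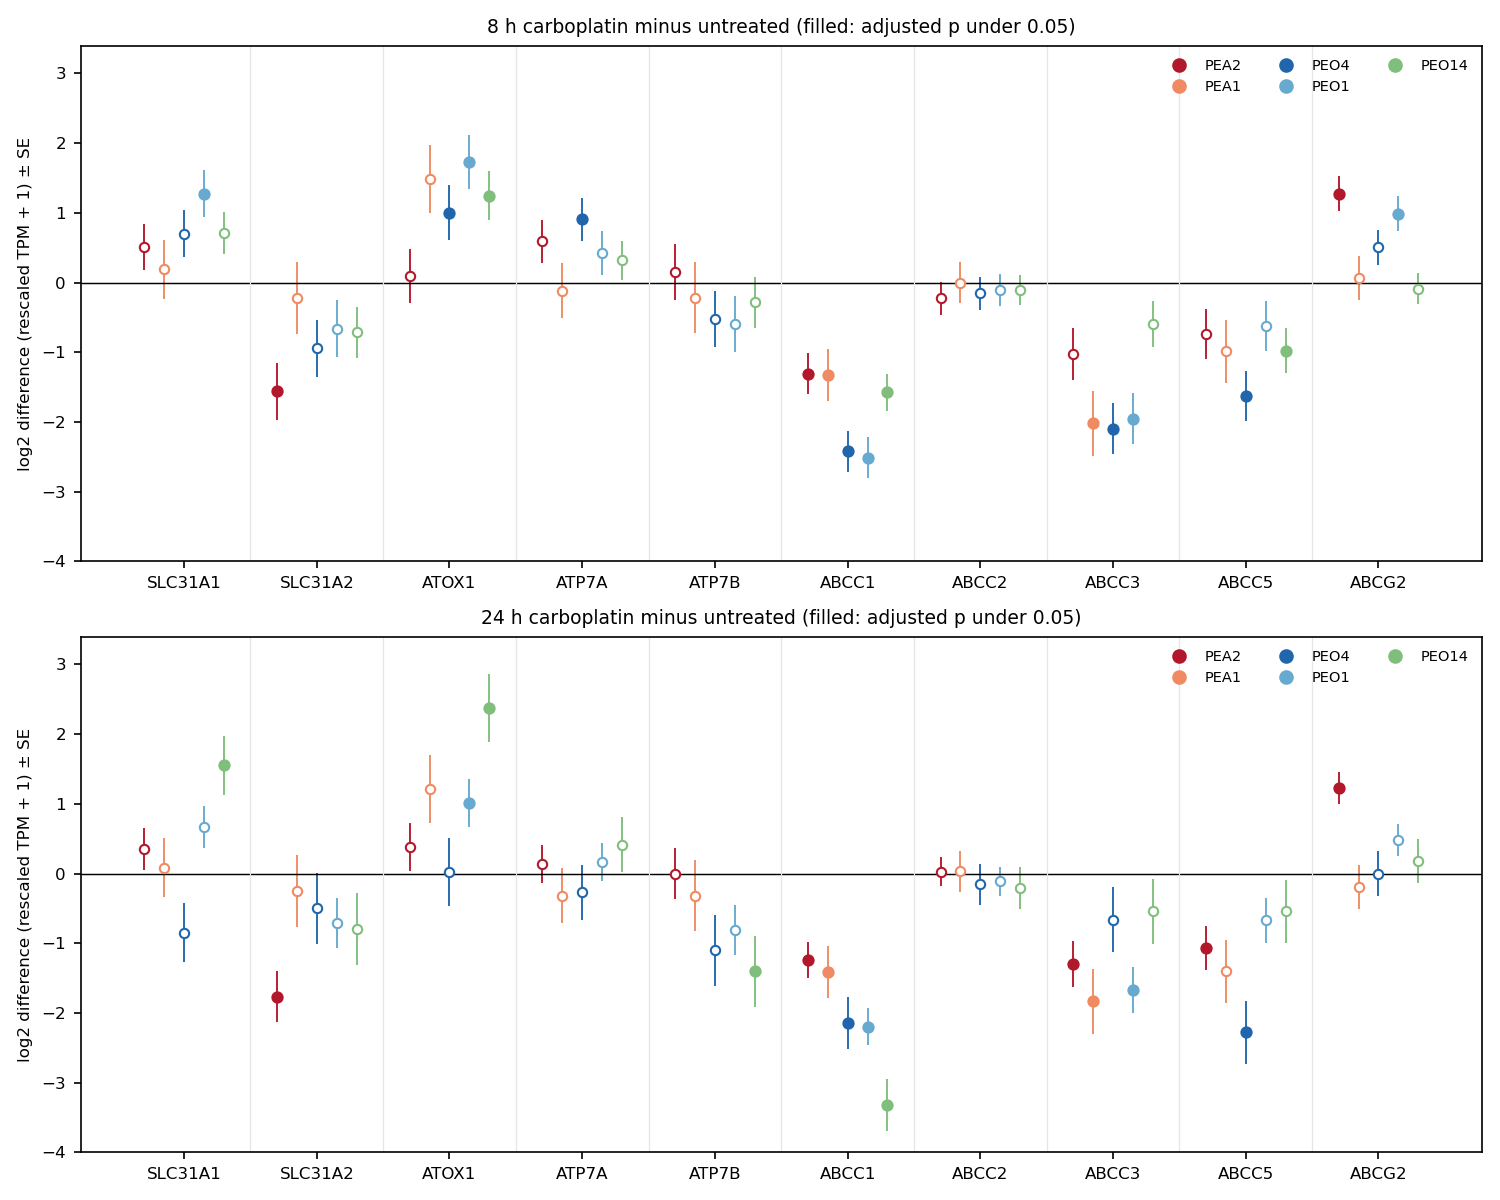
Log2 difference from untreated (y axis, ± SE) of each gene at 8 h and 24 h of carboplatin in the 5 lines with an untreated library; filled points passed an adjusted p of 0.05. ABCC1 is filled below 0 in all 5 lines at both times, and ABCG2 is filled above 0 in PEA2 at both times.

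Between resistant and sensitive lines no member was called in all pairs. Untreated, 1 member was called in PEA2 against PEA1 (SLC31A2), where 11.6% of all genes were called, and 2 in PEO4 against PEO1 (ATOX1 and ABCC3), where 28.4% were. At 8 h, 2 were called in the PEA pair (ATP7A and ABCG2, 16.2% of all genes), 1 in the PEO4 pair (ATOX1, 9.89%) and 2 in the PEO14 pair (ATOX1 and ABCC3, 14.8%). At 24 h, 1 was called in the PEA pair (ABCG2, 18.7%), 4 in the PEO4 pair (SLC31A1, ATOX1, ABCC3 and ABCC5, 21.6%) and 0 in the PEO14 pair (5.16%), where limma gave 1 member, ABCC1, an unadjusted p under 0.05 (1.2 ± 0.37, adjusted p = 0.0549). ATOX1 at 8 h was lower in PEO4 than in PEO1 and higher in PEO23 than in PEO14, the second not called without rescaling (0.13). Markers of cell type moved with the lines too. Averaged over pairs, limma called 5 of 6 epithelial and 5 of 6 serous ovarian markers higher untreated in resistant lines, and 2 of 4 tested fibroblast markers lower. Over the kept libraries of each line, serous ovarian markers summed to 86.0 to 250.9 TPM in PEA2 and 49.5 to 200.7 in PEA1, to 51.5 to 1948 in PEO4 and 9.79 to 266 in PEO1, and to 40.9 to 123 in PEO23 and 27.4 to 449 in PEO14. The part of these marker differences in the pair results was not tested. In the PEO14 pair at 8 h, 46.0% of all calls were higher with rescaling and 9.7% without.

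Averaged over pairs, SLC31A2 was the member called untreated, by 0.94 ± 0.31 over 2 pairs (adjusted p = 0.0357, 18.7% of genes called), with 1.93 in the PEA pair and -0.05 in the PEO4 pair. That call was lost without PEA2 untreated replicate 3 (0.75), PEO4 untreated replicate 3 (0.84) or PEO1 untreated replicate 1 (0.83), under either other scaling (0.86 and 0.76), and with the replicate block (0.81, adjusted p = 0.0541). At 8 h ABCC3 and ABCG2 were called (17.7% of genes; 48.9% of calls were higher with rescaling and 28.6% without). The ABCG2 average of 0.44 ± 0.14 (adjusted p = 0.0324) came with 1.66 in the PEA pair, -0.48 in the PEO4 pair and 0.14 in the PEO14 pair. Its call was lost without any of 5 different libraries, at 0.27 to 0.43. The 24 h averages have 1 library each for PEO4 and PEO14. At 24 h ABCC1, ABCC3 and ATOX1 were called (19.9% of genes), and the ATOX1 average of -0.75 ± 0.26 (adjusted p = 0.0392) was lost without any of 7 libraries, at -0.76 to -0.69, and with the replicate block, at -0.70 (adjusted p = 0.0816).

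**Figure D5:**
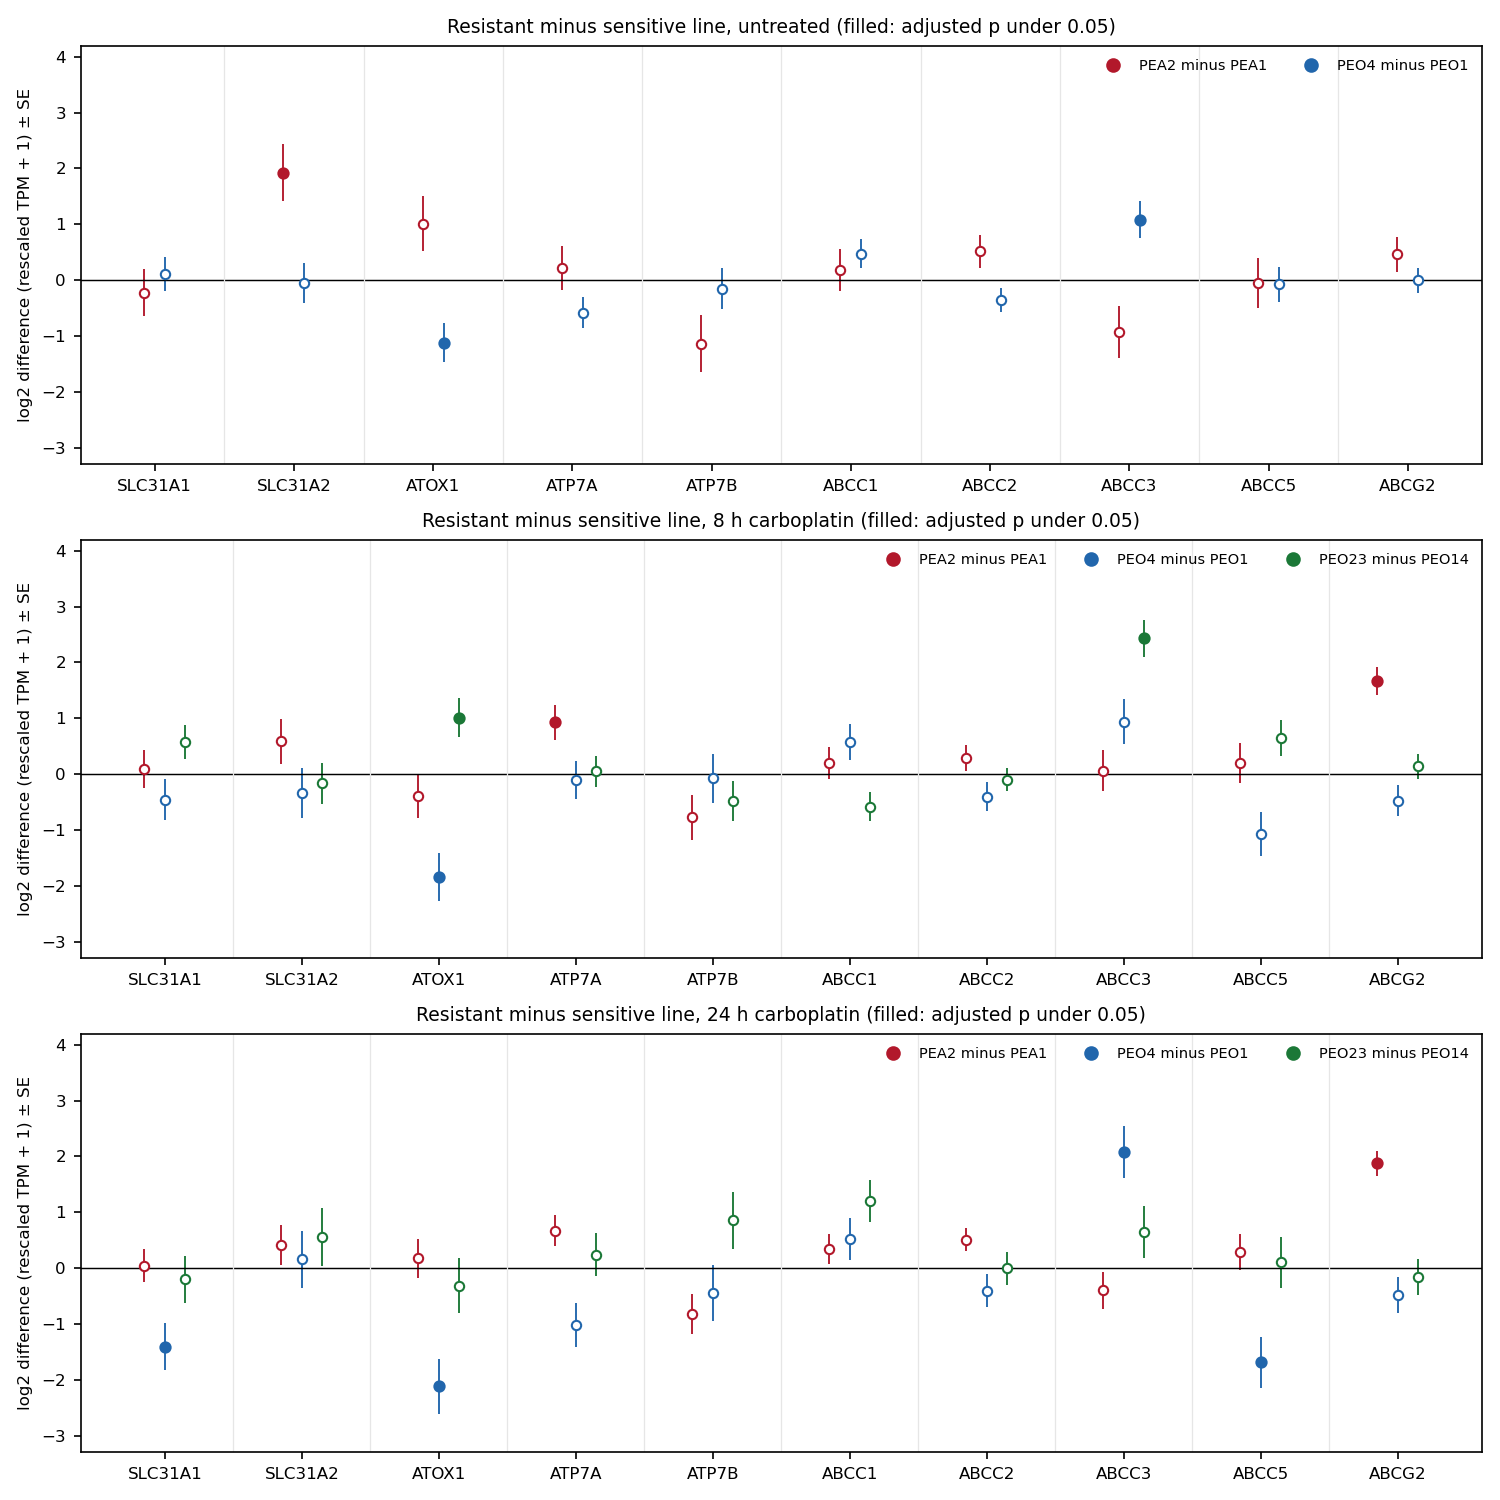
Log2 difference of the resistant minus the sensitive line (y axis, ± SE) of each gene untreated, at 8 h and at 24 h; filled points passed an adjusted p of 0.05, and no untreated PEO23 library was kept. ABCC3 is filled above 0 for PEO4 untreated and at 24 h and for PEO23 at 8 h, and ABCG2 for PEA2 at both treated times.

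The change with treatment was not shown to differ between the lines of a pair for any member. Of the differences of changes, limma called 0 at an adjusted p under 0.05, and 10 had an unadjusted p under 0.05. Of all genes, 0.339% were called for the 8 h change, 0.383% for the 24 h change and 0.00555% between the times in the PEA pair, 2.38%, 1.38% and 0.822% in the PEO4 pair, and 0.139% between the times in the PEO14 pair. The smallest unadjusted p of these belonged to ABCC1 in the PEO14 pair between 8 h and 24 h, with a difference of 1.79 ± 0.46 (unadjusted p = 0.000496, adjusted p = 0.1). Between 8 h and 24 h, 1 member each was called in PEO4 (SLC31A1, 14.1% of all genes), PEO14 (ABCC1, 2.54%) and PEO23 (ABCC3, 0.394%), and 0 in PEA2 (0%), PEA1 (0.0278%) and PEO1 (0.217%). Averaged over 6 lines 0 were called (1.54% of all genes), and limma gave 1 member, ATP7A, an unadjusted p under 0.05. The share of calls that were higher moved in PEO4 to 96.5% without rescaling, against 54.4% with it, in PEO14 to 1.6% against 21.2%, in PEO23 to 0% of a single call against 19.7%, and in PEO1 to 98.8% against 43.6%.

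A fit of only the groups compared leaves the differences as they are but takes the spread from fewer samples, and 24 of 71 single-gene calls were lost in it. ABCC1 lost its calls in PEA1 at both times, in PEO4 at 24 h and in PEO14 between the times. ABCC3 lost them in PEO1 and PEO4 at 8 h, PEA1 at 24 h, PEO23 between the times and untreated PEO4 against PEO1. Also lost were ABCC5 in PEO4 at both times and ABCG2 in PEA2 at 8 h. SLC31A2 lost its calls in PEA2 at 8 h and between untreated PEA2 and PEA1. ATOX1 lost them in PEO1 and PEO4 at 8 h and in 3 pair comparisons. SLC31A1 in PEO1 at 8 h and in PEO4 between the times, and ATP7A in PEO4 at 8 h, were lost too. With 0.1 TPM added, 10 calls were lost, among them ABCC3 in PEA1 at both times and ATP7B in PEO14 at 24 h. The averages over lines against untreated kept their calls in the first of these fits.

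Some members overlap other genes, and the strand setting of the counting is not given in the sources used here. SLC31A1 overlaps CDC26, SLC31A2 overlaps FKBP15, ATOX1 overlaps G3BP1, ATP7A overlaps PGAM4 and ABCC5 overlaps ABCC5-AS1, each on the other strand, and ATP7A also overlaps PGK1 on the same strand. Levels of these members are therefore uncertain to the extent that reads were shared.

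Other copper genes were followed as a list of 22, all tested, among them copper chaperones, metalloreductases, enzymes that use copper and genes of copper-dependent cell death. At 8 h, averaged over 5 lines, 11 were higher and 4 lower, but 4 higher and 10 lower without rescaling. Of all genes 63.6% were called at 8 h, 23.9% higher and 39.7% lower, and 56.8% at 24 h, 21.7% higher and 35.2% lower. COMMD1, a regulator of copper ATPase trafficking, rose by 2.18 ± 0.28 (adjusted p = 1.04e-07), SOD1, the copper-zinc superoxide dismutase, by 2.13 ± 0.24 (adjusted p = 1.05e-08) and COX17, which delivers copper to cytochrome oxidase, by 1.78 ± 0.40 (adjusted p = 0.000312). Without rescaling COMMD1 was at 1.25 and SOD1 at 1.17, both called, and COX17 at 0.86, not called. The list's median change was 0.46 at 8 h and 0.31 at 24 h, beside -0.22 and -0.19 over all genes, and -0.35 and -0.13 without rescaling, beside -0.74 and -0.58. At 24 h 10 were higher and 5 lower (3 and 8 without rescaling). Between lines, averaged over pairs, 1 was higher and 1 lower untreated and at 8 h, and 0 higher and 3 lower at 24 h, where 18.7%, 17.7% and 19.9% of all genes were called. LIAS, lipoyl synthase, was lower in resistant lines untreated by -1.34 ± 0.36 (adjusted p = 0.00854) and at 24 h by -1.44 ± 0.31 (adjusted p = 0.00131), and STEAP4, a metalloreductase, was higher untreated by 0.86 ± 0.21 (adjusted p = 0.00409).

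Of 11 genes for volume-regulated anion channels, organic cation transporters and TMEM205, 9 were tested. Averaged over lines, 1 was higher and 4 lower at 8 h and 0 and 3 at 24 h, beside 63.6% and 56.8% of all genes called. Without rescaling these were 0 and 7 at 8 h and 0 and 4 at 24 h. SLC47A2, a proton-coupled exporter of organic cations, fell by 1.15 ± 0.21 at 8 h (adjusted p = 1.75e-05) and by 1.46 ± 0.22 at 24 h (adjusted p = 2.28e-06) on the log2 scale, and LRRC8E, a subunit of the volume-regulated anion channel, fell by 1.00 at 8 h (adjusted p = 5.06e-08). LRRC8A, the obligate subunit of the channel, fell by 0.66 ± 0.19 at 8 h (adjusted p = 0.00363). SLC22A3, an organic cation transporter, was lower in resistant lines averaged over pairs by -2.20 ± 0.33 untreated (adjusted p = 9.84e-06), -2.32 ± 0.25 at 8 h (adjusted p = 2.80e-08) and -1.65 ± 0.28 at 24 h (adjusted p = 9.24e-05), and was called at all 3 times without rescaling too. TMEM205, which has been linked to cisplatin resistance, was higher by 1.26 ± 0.31 untreated (adjusted p = 0.00403).

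Of 11 other drug efflux genes, 6 were tested, and 1 was higher and 4 lower at 8 h and 0 and 2 at 24 h, where 63.6% and 56.8% of all genes were called. Without rescaling 0 were higher and 5 lower at 8 h and 0 and 4 at 24 h. ABCC10 fell by 1.37 ± 0.17 at 8 h (adjusted p = 7.30e-08) and by 1.14 ± 0.19 at 24 h (adjusted p = 7.76e-06) on the log2 scale, and ABCC6, which has near-identical pseudogene copies and is uncertain, fell by 1.77 ± 0.37 at 8 h (adjusted p = 0.000122). Between lines, averaged over pairs, 0 were higher and 3 lower untreated, 0 and 2 at 8 h, and 1 and 2 at 24 h. Of all genes 18.7%, 17.7% and 19.9% were called in these averages, the untreated one being over 2 pairs. MVP, the major vault protein, was higher at 24 h by 1.08 ± 0.28 (adjusted p = 0.00713), and not called without rescaling (adjusted p = 0.0595).

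The group means of the 10 genes were compared with those of 10756 genes over the 17 groups, as a description, since groups share lines and libraries differ in composition. The genes most like ABCC1 were SKI (Pearson r = 0.979) and PXN (0.969). Most like ABCC3 were FMNL1 (0.933) and TAF8 (0.905), most like ATOX1 were NANS (0.926) and PAIP1 (0.915), and most like ABCC5 were ZCCHC6 (0.917) and NIPBL (0.903). Among the members SLC31A1 and ATOX1 had the highest r, 0.810 over 17 groups, and ATOX1 and ABCC1 the lowest, -0.744.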

How the data were processed

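RNA was measured as TPM in 54 libraries, 3 for each of 18 groups of line and time. The deposited table holds TPM values per gene. Per the labels' protocols, cells grew for 48 h before treatment, libraries were made from 200 ng of total RNA with a stranded kit, and reads were pairs of 75 bases. Bcl2fastq 2.18 and hg19 are named per the submitters' processing notes; no source used here gives the aligner, annotation or strand setting. Since TPM sums to the same total everywhere, depth is unknown and no counting interval is given. Replicates are cultures of 3 days from one line, and p-values measure the spread between them. Untreated PEA2 replicates 2 and 3 share the label of passage 24, and untreated PEO14 replicates 1 and 2 that of passage 20. The labels do not show whether these are separate cultures.

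Libraries with under 12000 genes above 0 TPM were set aside. TPM values were rescaled by a median ratio over 8287 genes. Genes with at least 1 TPM in 3 libraries were tested with limma 3.58.1 in R 4.3.3 on log2(rescaled TPM + 1), with a mean-variance trend, a mean for each of 17 groups and 37 contrasts, after a check on simulated data. The log2 ratios were tested by exact permutation within strata. The members and gene lists were chosen with earlier results of these data known. Genes outside the members were named by a rule: at most 3 called genes of each list and comparison, by size of the difference, and the 2 genes most like each of the 4 members with the widest range. Replicates with the same number at 8 h and 24 h share a culture label in all 18 cases, so the numbers pair them. Untreated and treated replicates of a number share none, and neither do different lines, so there the replicate block is a pairing by number alone. The correlation of deviations between 8 h and 24 h replicates of a number, in the lines where it could be had, lay between -0.261 and 0.275. Alternatives were all libraries, no rescaling, upper quartile scaling, a pseudocount of 0.1, no filter, only the groups compared, the replicate block and each library left out. Promoter windows came from RefSeq. In the table, 28 symbols had been turned into dates and are not named. 1 gene of the drug efflux list is not reported here by name.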

Additional observations from a re-analysis of the deposited data

Results flagged for a closer look

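ATOX1 at 8 h differed in opposite directions between pairs, with groups that did not overlap: the log2 difference was -1.85 for PEO4 minus PEO1 and -0.39 for PEA2 minus PEA1, but 1.01 for PEO23 minus PEO14. ABCC2 at 8 h had a difference of 0.29 for PEA2 minus PEA1 and -0.41 for PEO4 minus PEO1, also without overlap, at levels of at most 0.803 rescaled TPM. The difference between pairs was not tested for either gene.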

How the results depend on the processing

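Of 71 called single-gene results, 15 kept their call and direction with all 54 libraries, 48 without rescaling, 69 with upper quartile scaling, 61 with a pseudocount of 0.1, 70 without a filter, 47 with only the compared groups and 61 with the replicate block. With all libraries the scaling rests on 392 genes. The direction reversed with all libraries for ATOX1 in PEO4 minus PEO1 at 8 h (0.49), in PEO1 at 8 h (-0.66), in PEO14 at 24 h (-2.14) and averaged over pairs at 8 h (0.32) and 24 h (0.38), for ABCC3 in PEO4 minus PEO1 at 24 h (-0.56), in PEO4 from 8 h to 24 h (-0.56) and averaged over pairs at 24 h (-0.0133), and for SLC31A2 in PEO4 at 8 h (0.065). It reversed without rescaling for SLC31A1 in PEO1 at 8 h (-0.29), in PEO4 at 8 h (-0.76) and averaged at 8 h (-0.18) and 24 h (-0.25), for ATOX1 in PEO4 at 8 h (-0.62) and for ATP7A averaged at 8 h (-0.058). The cause was not tested.

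With all libraries, the member calls between lines numbered 0 untreated, 0 at 8 h and 2 at 24 h, against 3, 5 and 5 in the kept libraries. Calls against untreated numbered 0 at 8 h and 6 at 24 h, against 18 and 16. Calls between 24 h and 8 h numbered 0, against 3, and averages 8, against 21. With only the compared groups, which have fewer samples, calls between lines numbered 1 untreated and 3 at 8 h, and 1 between 24 h and 8 h. A pseudocount of 0.1 gave 8 between lines at 24 h, and no filter gave 1 difference of changes, against 0. The replicate block gave 3, 4 and 6 calls between lines, 15 at 8 h, 17 at 24 h, 2 between the times, 0 differences of changes and 19 averages.

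Leaving out each library in turn gave 2 to 3, 3 to 6 and 5 to 6 calls between lines, 16 to 21 at 8 h, 15 to 19 at 24 h, 2 to 6 between the times, 0 to 1 differences of changes and 19 to 22 averages. The ratio then lay between -1.33 and -0.78 at 24 h, between -0.77 and -0.43 at 8 h, between -0.11 and 0.30 in the PEA pair, between -0.68 and 0.17 in the PEO4 pair and between -0.97 and 0.29 in the PEO14 pair. The ratio of PEO23 to PEO14 was -0.15 with all libraries and -0.0113 with ATP7A alone, and that of PEO4 to PEO1 was 0.0341 with 1 TPM added. The 24 h change was -0.74 with 1 TPM added (adjusted p = 0.200). The PEA pair gave 1.21 with ATP7A alone. With ATP7B alone it gave -2.09, which rests on 1 PEA2 library against 3 PEA1 libraries at 8 h, and the 8 h change was -1.64 (adjusted p = 0.00438) over 4 lines, as untreated PEA2 has no ratio. Depth is unknown, so values near 0 TPM have no stated precision.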

Other observations

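The 3 untreated PEO23 libraries were set aside with 11151, 2678 and 2985 genes listed, and entered no comparison. As deposited, ABCC1 was at 55.3, 0 and 0 TPM in them, ABCC5 at 52.7, 0 and 0 TPM, and ATOX1 at 49.4, 0 and 0 TPM. SLC31A1 was at 21.6, 0 and 0 TPM, and SLC31A2 at 5.52, 186 and 0 TPM. ATP7A was at 12.3, 0 and 0 TPM and ATP7B at 4.64, 0 and 0 TPM. ABCC3 was at 9.05, 0 and 80.5 TPM, and ABCC2 and ABCG2 were listed at 0 in all 3.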
